A study of Homo sapiens with 8 samples.

Results

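The genes for glucose transporters and hexokinases, which bring glucose into the cell and trap it there, were measured as mRNA in KYSE150, a human cell line from an esophageal squamous cell carcinoma. The genes were taken by symbol from the rows of the gene count table: the glucose transporter genes SLC2A1, SLC2A3, SLC2A6, SLC2A8, SLC2A10 and SLC2A12 and the hexokinase genes HK1, HK2 and HKDC1. These are 9 of 61517 listed genes, and 8 of the 9 passed the expression filter that left 15554 genes for testing. Poly(A)-selected RNA was sequenced from 4 groups of 2 libraries. The first group was hypoxic and received sodium oxamate (it inhibits lactate dehydrogenase) and NALA, read here as sodium lactate because the treatment protocol names that salt. The second was kept in hypoxia with oxamate, the third in hypoxia without drug, and the fourth in normoxia without drug. All groups were the same cell line in RPMI-1640 with serum and antibiotics. The sources used here give neither doses nor oxygen levels nor durations, and every group with oxamate or NALA was also hypoxic. By its title, the series is about lactylation of HIF-1α, the oxygen-regulated subunit of the transcription factor HIF-1.

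Glucose crosses the plasma membrane through facilitative carriers of the SLC2A family (the GLUT proteins), which move it down its gradient. Hexokinases then add phosphate from ATP, and the glucose 6-phosphate formed can no longer leave through the carriers. It feeds glycolysis, the pentose phosphate pathway and glycogen. SLC2A1, SLC2A3 and HK2 are textbook targets of HIF-1, and squamous carcinomas are known for high SLC2A1.

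Total counts per library ran from 21845676 to 29406061. The genes described here took 0.518% and 0.529% of all counts with oxamate and NALA, 0.119% and 0.118% with oxamate, 0.394% and 0.391% in hypoxia and 0.0590% and 0.0601% in normoxia. Levels are given as TMM-scaled CPM, counts scaled to a common library size after edgeR's correction, and a floor of 3 counts corresponds to between 0.0948 and 0.153 CPM. All 10 squamous epithelial markers were tested, with sums between 2302 and 4835 CPM, although SOX2 had 0 counts in both NALA libraries. Sums of 6 leukocyte markers lay between 0.112 and 2.39 CPM, and 1 of the 6 was at 0 in all libraries. The highest of these sums was in NALA replicate 1, against 0.652 CPM in NALA replicate 2. Sums of 7 fibroblast and endothelial markers were 1.47 and 1.67 CPM with NALA, 1.51 and 2.59 CPM with oxamate, 10.15 and 9.54 CPM in hypoxia and 3.72 and 3.73 CPM in normoxia, with 1 marker at 0 in all libraries. Most of the hypoxia sum was COL1A1, at a mean of 7.81 CPM. Replicate 1 with NALA stood apart from the other libraries. It held 25 genes with at least 5 counts that were at 0 in the other 7 libraries, led by the liver genes ALB with 204 counts and AFP with 98, while the other libraries held between 4 and 15 such genes. Together these 25 genes made up 0.00266% of its counts, and the results that change without this library are named where they are given. Whether the libraries of a group were separate cultures is not stated in the labels, so the spread behind the p-values may be technical. That spread is between libraries of a group, pooled over the 4 groups and moderated across genes by edgeR. The 2 libraries differed most with NALA, at a chi-square per degree of freedom of 4.56. It was 2.03 with oxamate, 2.06 in hypoxia and 1.83 in normoxia. In bulk RNA, fewer cells that express a gene and less of its RNA per cell cannot be told apart.

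SLC2A1 was the most abundant transporter gene per length in all groups but hypoxia alone. It encodes GLUT1, the basal glucose carrier of most cells, and lies on chromosome 1 from 42925375 to 42959176 on the minus strand (GRCh38, GENCODE 29, as for all genes here). It stood at 1643 and 1756 CPM with oxamate and NALA, 560.1 and 552 CPM with oxamate, 687 and 674 CPM in hypoxia and 198 and 203 CPM in normoxia. The groups did not overlap, in the order NALA, hypoxia, oxamate, normoxia. Each neighbouring pair differed in edgeR's quasi-likelihood test, used for all tests below, with p-values adjusted by Benjamini-Hochberg over 15554 genes. SLC2A1 rose 3.39-fold in hypoxia (log2 fold change 1.76 ± 0.033, SE, n = 2 per group, edgeR adjusted p = 1.48e-21). It was 1.22-fold lower with oxamate than in hypoxia (-0.29 ± 0.031, edgeR adjusted p = 1.99e-08), a difference not called in a test against a fold of 1.5. With NALA added to oxamate it was 3.06-fold higher (1.61 ± 0.032, edgeR adjusted p = 9.27e-21), at 2.50-fold above hypoxia (1.32 ± 0.031) and 8.48-fold above normoxia (3.08 ± 0.034). Without NALA replicate 1 the rise over oxamate was 1.66 and that over hypoxia 1.38.

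The 250 bases before the RefSeq start of SLC2A1 are printed to be set beside those of HK2, which had the same order of levels. Capitals in this and the later sequences mark the letters ACGTG or GCGTG on either strand (ACGTG holds the core letters of a HIF site, GCGTG is a variant). The window is chr1:42958869-42959118 on the minus strand of GRCh38.p14.
SLC2A1: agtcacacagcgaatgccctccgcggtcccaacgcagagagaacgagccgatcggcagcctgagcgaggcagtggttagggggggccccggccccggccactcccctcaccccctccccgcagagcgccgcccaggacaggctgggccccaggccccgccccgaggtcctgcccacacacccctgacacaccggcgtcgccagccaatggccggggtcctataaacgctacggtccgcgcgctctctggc
This window held no match of ACGTG or GCGTG, which says only that these letters are not in it.

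SLC2A3 encodes GLUT3, a carrier with a high affinity for glucose that is best known from neurons, and lies on chromosome 12 from 7919230 to 7936275 on the minus strand. It had the largest hypoxia response of the family. The libraries with oxamate and NALA held 808 and 792 CPM, those with oxamate 98.2 and 91.8 CPM, those in hypoxia 1491 and 1467 CPM and those in normoxia 27.2 and 26.9 CPM. No groups overlapped, and the order was hypoxia, NALA, oxamate, normoxia. SLC2A3 was 54.8-fold higher in hypoxia than in normoxia (5.78 ± 0.040, edgeR adjusted p = 1.61e-28). It was 15.6-fold lower with oxamate than in hypoxia (-3.96 ± 0.035, edgeR adjusted p = 1.17e-26). With NALA it was 8.42-fold higher than with oxamate (3.07 ± 0.035, edgeR adjusted p = 8.66e-25). That level stayed below hypoxia alone (-0.89 ± 0.030, edgeR adjusted p = 2.90e-17), where SLC2A1 and HK2 were above it. SLC2A14, a near-identical neighbour that could share its reads, held at most 12 counts in a library, and 3 processed copies held at most 4.

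SLC2A12 encodes GLUT12 and lies on chromosome 6 from 133988697 to 134052636 on the minus strand. Its fall with oxamate relative to hypoxia was the largest of the 8 tested genes. Its levels were 2.80 and 2.16 CPM with oxamate and NALA, 0.619 and 0.283 CPM with oxamate, 29.5 and 26.7 CPM in hypoxia and 2.16 and 2.09 CPM in normoxia. Hypoxia stood far above the other groups, oxamate below them, and NALA and normoxia lay side by side. SLC2A12 rose 13.2-fold in hypoxia (3.73 ± 0.137, edgeR adjusted p = 1.82e-16). With oxamate it had 23 counts against 1627 in hypoxia, 61.8-fold lower after scaling (95% binomial counting interval 41.0 to 97.7, edgeR adjusted p = 5.78e-18). It was also 4.66-fold lower with oxamate than in normoxia (interval 2.97 to 7.62, edgeR adjusted p = 3.58e-07), the only gene of the set with a lower call there. With NALA it was higher than with oxamate (2.42 ± 0.288, edgeR adjusted p = 1.40e-07), at a level 11.5-fold below hypoxia. NALA and normoxia did not differ beyond their spread (0.21 ± 0.201, edgeR adjusted p = 0.361). SLC2A12 shares 38.9% of its exon bases with TBPL1 on the opposite strand, and the strand of the libraries is not stated. TBPL1 was at 74.4 and 73.9 CPM with NALA, 37.2 and 37.8 CPM with oxamate, 25.3 and 24.1 CPM in hypoxia and 27.8 and 26.0 CPM in normoxia. Its part in the SLC2A12 values was not tested.

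SLC2A8 encodes GLUT8, a carrier mostly held inside the cell, and lies on chromosome 9 from 127397138 to 127408424 on the plus strand. Unlike SLC2A1, SLC2A3 and SLC2A12, it fell in hypoxia and was higher with oxamate than in hypoxia. Its levels were 13.0 and 14.9 CPM with oxamate and NALA, 18.8 and 19.9 CPM with oxamate, 10.5 and 8.76 CPM in hypoxia and 13.5 and 14.0 CPM in normoxia. Oxamate libraries were the highest and hypoxia libraries the lowest, while NALA and normoxia overlapped (0.02 ± 0.099, edgeR adjusted p = 0.862). SLC2A8 fell by 0.52 ± 0.101 on the log2 scale in hypoxia (edgeR adjusted p = 8.67e-05). It was 2.01-fold higher with oxamate than in hypoxia (1.01 ± 0.098, edgeR adjusted p = 3.69e-09) and 1.40-fold higher than in normoxia (0.49 ± 0.094). It was lower with NALA than with oxamate (-0.47 ± 0.097, edgeR adjusted p = 2.08e-04), the only lower call of the set in that comparison. Apart from the 2.01-fold difference, its calls did not hold in a test against a fold of 1.5.

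The windows of SLC2A12, which fell most with oxamate, and SLC2A8, which rose, are printed side by side, chr6:134052625-134052874 on the minus strand and chr9:127396919-127397168 on the plus strand of GRCh38.p14.
SLC2A12: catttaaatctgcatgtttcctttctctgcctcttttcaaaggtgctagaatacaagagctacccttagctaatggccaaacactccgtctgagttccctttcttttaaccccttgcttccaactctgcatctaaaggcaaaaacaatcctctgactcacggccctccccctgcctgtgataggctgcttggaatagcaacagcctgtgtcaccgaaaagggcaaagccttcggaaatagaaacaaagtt
SLC2A8: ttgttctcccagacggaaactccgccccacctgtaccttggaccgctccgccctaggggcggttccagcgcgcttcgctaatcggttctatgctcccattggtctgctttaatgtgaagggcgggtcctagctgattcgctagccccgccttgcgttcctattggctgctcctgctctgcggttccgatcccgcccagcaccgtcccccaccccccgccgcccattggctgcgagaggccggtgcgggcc
Neither window held ACGTG or GCGTG. They differed in base composition, with 46.0% G and C in SLC2A12 and 65.2% in SLC2A8. Across the family, 8 of 9 genes had 15 windows in the RefSeq table, SLC2A3 had none, and matches were found in windows of HK2, HK1, SLC2A6 and SLC2A10.

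SLC2A6 encodes GLUT6, another carrier of internal membranes, and lies on chromosome 9 from 133471095 to 133479137 on the minus strand. It was low throughout, with 9 and 16 counts with oxamate and NALA, 25 and 24 with oxamate, 22 and 13 in hypoxia and 30 and 48 in normoxia. Its normoxia libraries were the highest, at 1.12 and 1.52 CPM, and NALA and hypoxia overlapped. SLC2A6 was lower in hypoxia than in normoxia (-1.13 ± 0.377, edgeR adjusted p = 0.0108). The call was kept under 12 of 16 alternatives. Those that lost it included DESeq2 (-1.13) and the fits without normoxia replicate 2 (-0.88) and without hypoxia replicate 2 (-0.82). SLC2A6 was lower with oxamate and NALA than in normoxia (-1.23 ± 0.399, edgeR adjusted p = 8.87e-03), a call also kept under 12 of 16 alternatives. Those that lost it included DESeq2 (-1.21) and the fits without NALA replicate 1 (-1.01) and without normoxia replicate 2 (-0.99). The other 4 comparisons of SLC2A6 did not pass. SLC2A10, encoding GLUT10 on chromosome 20 from 46709487 to 46736347, had 1 count in all, in hypoxia replicate 2, and was not tested. Whether a listed 0 means absence of the RNA was not tested. TXNIP, an arrestin-like gene used by most cells, had 1 count in normoxia replicate 1, 26 in NALA replicate 1 and 0 elsewhere. NALA replicate 1 is the library that held the liver genes.

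HK2 had the order of levels of SLC2A1, with wider steps. It encodes hexokinase 2, an isoform that is low in most adult tissues, high in many tumors and able to dock on mitochondria. It lies on chromosome 2 from 74833981 to 74893359 on the plus strand. It stood at 2910.4 and 2917 CPM with oxamate and NALA, 336 and 339.96 CPM with oxamate, 904 and 907 CPM in hypoxia and 78.7 and 78.7 CPM in normoxia. No libraries of different groups overlapped, and the order was NALA, hypoxia, oxamate, normoxia. HK2 rose 11.5-fold in hypoxia against normoxia (3.52 ± 0.030, edgeR adjusted p = 3.44e-27). It fell by 1.42 ± 0.027 on the log2 scale when oxamate was added to hypoxia, a 2.68-fold lower level (edgeR adjusted p = 1.03e-21). With NALA added to oxamate it rose 8.62-fold (3.11 ± 0.028, edgeR adjusted p = 3.12e-26). That level was 3.22-fold above hypoxia alone (1.69 ± 0.026, edgeR adjusted p = 8.20e-23) and 37.0-fold above normoxia (5.21 ± 0.032). With oxamate HK2 was still 4.29-fold above normoxia (2.10 ± 0.030). The pseudogene HK2P1, a near-identical copy, held 71 and 64 counts with NALA, 16 and 9 with oxamate, 16 and 11 in hypoxia and 3 and 4 in normoxia. Adding them to HK2 changed no call.

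RefSeq gives HK2 2 transcription starts, and the 250 bases before each are printed because the second held more matches than any other window of the family. The windows are chr2:74833877-74834126 and chr2:74834920-74835169, both on the plus strand of GRCh38.p14.
HK2, the first start: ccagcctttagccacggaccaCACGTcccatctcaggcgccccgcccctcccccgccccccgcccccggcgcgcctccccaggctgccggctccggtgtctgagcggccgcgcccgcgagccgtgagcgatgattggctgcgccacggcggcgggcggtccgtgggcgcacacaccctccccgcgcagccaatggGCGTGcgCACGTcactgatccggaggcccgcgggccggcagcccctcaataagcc
HK2, the second start: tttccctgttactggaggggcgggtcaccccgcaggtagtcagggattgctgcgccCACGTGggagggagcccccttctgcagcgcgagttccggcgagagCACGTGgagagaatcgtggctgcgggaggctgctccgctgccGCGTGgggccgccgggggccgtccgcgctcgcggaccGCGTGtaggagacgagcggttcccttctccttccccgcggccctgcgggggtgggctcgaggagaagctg
The first window held 3 matches, 2 of ACGTG and 1 of GCGTG. The second held 6, of which 4 were ACGTG, and these 4 came from 2 copies of the E-box CACGTG, which reads as ACGTG on both strands. The window of SLC2A6, which was lower in hypoxia than in normoxia, also held 3 matches, all of GCGTG. That of SLC2A10, which had 1 count in all, held 1 match, of ACGTG. Of 35116 promoter windows of the same length in the table, 43.2% held at least 1 match of ACGTG or GCGTG, 7.8% held at least 3 matches and 6.3% held CACGTG. Matches are letters in a window and were not tested as binding sites.

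HK1 encodes hexokinase 1, the isoform found in nearly all cells, and lies on chromosome 10 from 69269984 to 69401884 on the plus strand. HK1 changed in the same directions as HK2 in 5 of the 6 comparisons, by less. Its level was 376 and 393 CPM with oxamate and NALA, 334 and 337 CPM with oxamate, 471 and 469.9 CPM in hypoxia and 192 and 196 CPM in normoxia. The groups did not overlap, and the order was hypoxia, NALA, oxamate, normoxia. HK1 rose 2.42-fold in hypoxia (1.28 ± 0.032, edgeR adjusted p = 1.72e-19) and fell by 0.49 ± 0.031 on the log2 scale with oxamate. NALA added to oxamate gave a rise of 0.20 ± 0.031 (edgeR adjusted p = 7.78e-06). This smallest step was not called with upper quartile scaling, where it was 0.0065, or without oxamate replicate 1, where it was 0.091. Against hypoxia alone HK1 was lower with oxamate and NALA (-0.29 ± 0.031, edgeR adjusted p = 1.43e-08), in the direction opposite to HK2. In a test against a fold of 1.5, neither this difference, nor that between oxamate and hypoxia, nor that between NALA and oxamate was called. RefSeq lists 7 starts for HK1, and 1 of their 7 windows held a match of GCGTG and none held ACGTG.

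HKDC1, a hexokinase-like gene next to HK1 on chromosome 10 from 69220303 to 69267559, was near the floor outside hypoxia. It had 2 and 5 counts with oxamate and NALA, 4 and 6 with oxamate, 55 and 51 in hypoxia and 11 and 14 in normoxia, so only the hypoxia and normoxia libraries carried it past the expression filter. The filter thus favoured its calls between these groups and those with oxamate or NALA. Such calls are included in the counts over the family below. The hypoxia libraries were the highest 2, at 1.87 and 1.80 CPM, and the NALA and oxamate libraries overlapped. HKDC1 rose by 2.09 ± 0.400 on the log2 scale in hypoxia (edgeR adjusted p = 7.37e-05), a ratio of scaled counts of 4.29 with a 95% binomial (Clopper-Pearson) counting interval from 2.75 to 6.92. It was 9.26-fold lower with oxamate than in hypoxia by scaled counts (interval 4.84 to 19.9, edgeR adjusted p = 1.88e-06). With NALA its log2 difference from oxamate was -0.32 ± 0.686 (edgeR adjusted p = 0.707), and 0.041 without NALA replicate 1. Against hypoxia it was lower with oxamate and NALA (-3.50 ± 0.497, or -4.11 without NALA replicate 2). These intervals, and the floors, allow for the error of counting alone. COL1A1, listed here as a fibroblast marker, moved with HKDC1. It was at 0.813 and 1.14 CPM with NALA, 0.736 and 1.34 CPM with oxamate, 7.80 and 7.81 CPM in hypoxia and 2.19 and 2.56 CPM in normoxia. The other fibroblast markers did not show this: in hypoxia COL1A2 had 2 counts, COL3A1 0 and PDGFRB 6. What COL1A1 has to do with the HKDC1 result was not tested.

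**Figure D1:**
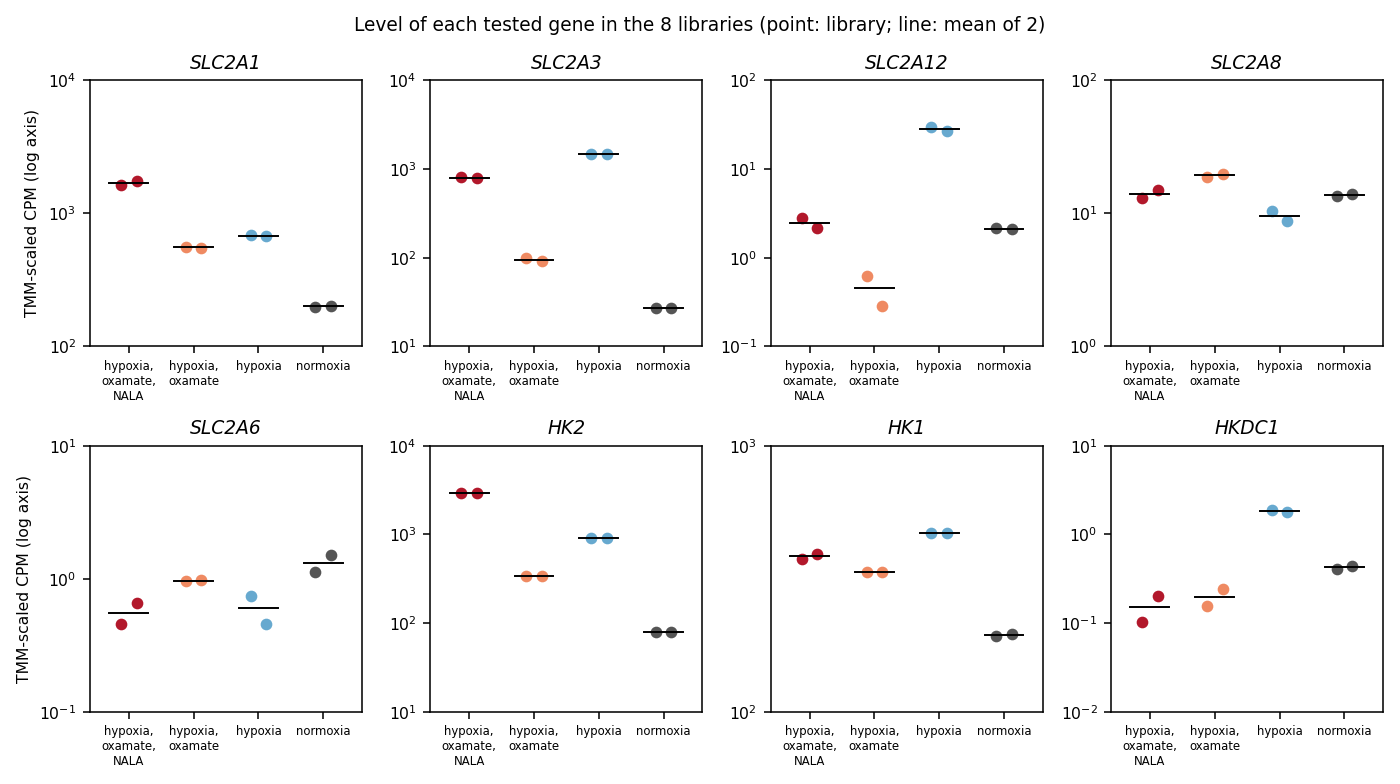
TMM-scaled CPM (log axis, each panel on its own scale) of the 8 tested genes in each library, with the groups from left to right as hypoxia with oxamate and NALA, hypoxia with oxamate, hypoxia, and normoxia. Points are libraries and lines are means of 2. HK2 and SLC2A1 are highest with NALA, SLC2A3, SLC2A12, HK1 and HKDC1 are highest in hypoxia alone, and SLC2A8 is highest with oxamate at 18.8 and 19.9 CPM.

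Counted over the family, hypoxia against normoxia gave 6 higher and 2 lower calls among the 8 tested genes. Among all 15554 tested genes 36.7% were called higher and 36.8% lower. The higher genes were all 3 hexokinase genes with SLC2A1, SLC2A3 and SLC2A12, and the lower ones SLC2A6 and SLC2A8. The median log2 fold change was 1.93, against 0.018 over all tested genes.
Oxamate against hypoxia gave 1 higher call, SLC2A8, and 6 lower calls, where 35.7% of all genes were higher and 44.8% lower. The median was -0.96, against -0.20 over all genes. SLC2A6 did not pass (0.68 ± 0.396, edgeR adjusted p = 0.120).
NALA against oxamate gave 5 higher calls and 1 lower, with 33.2% of all genes higher and 31.7% lower. The higher genes were SLC2A1, SLC2A3, SLC2A12, HK1 and HK2, and the median was 0.90, against -0.018.
NALA against hypoxia split the family: SLC2A1, SLC2A8 and HK2 were higher, SLC2A3, SLC2A12, HK1 and HKDC1 were lower, and SLC2A6 did not pass. Of all genes, 38.5% were called higher and 40.2% lower, and the medians were -0.20 for the family and -0.054 for all genes.
Oxamate against normoxia gave 5 higher calls (SLC2A1, SLC2A3, SLC2A8, HK1 and HK2) and 1 lower, SLC2A12, where 31.9% of all genes were higher and 40.1% lower. The medians were 0.64 for the family and -0.14 for all genes. NALA against normoxia gave 4 higher calls (SLC2A1, SLC2A3, HK1 and HK2) and 2 lower (SLC2A6 and HKDC1), where 35.9% of all genes were higher and 36.8% lower. The medians were 0.60 for the family and -0.042 for all genes, and the HKDC1 call (-1.41 ± 0.589, edgeR adjusted p = 0.0368) was lost without NALA replicate 1 (-1.05). The comparisons share their control libraries and are not independent of each other.

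**Figure D2:**
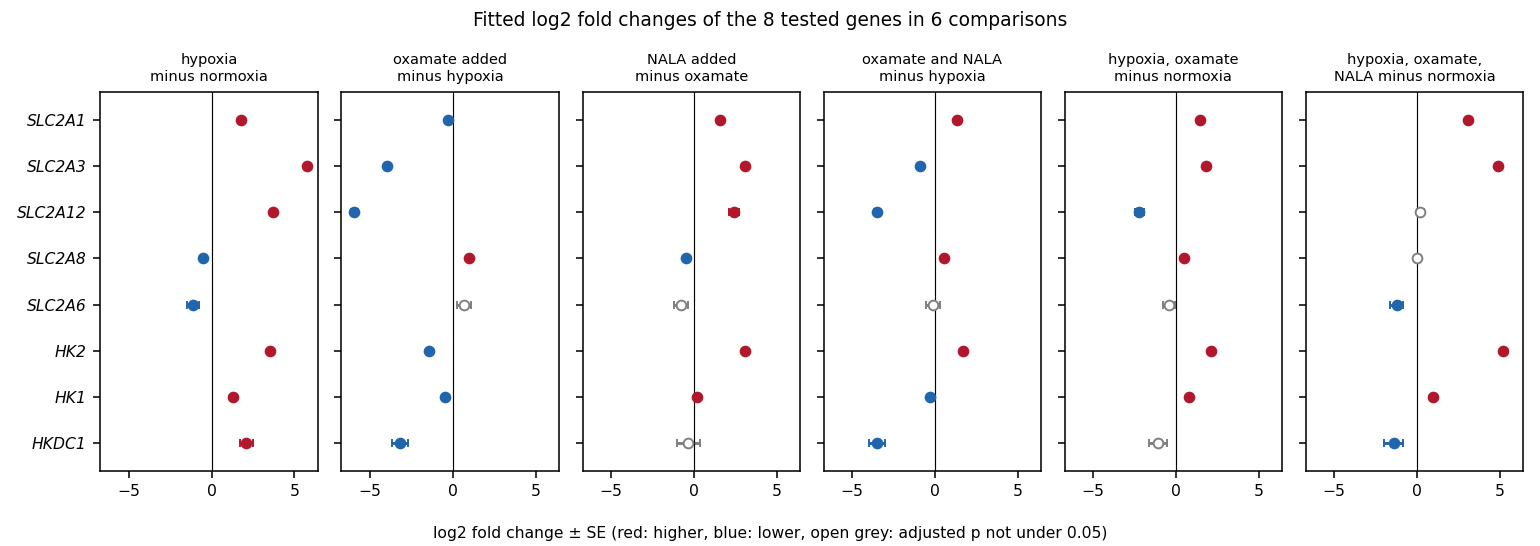
Fitted log2 fold changes ± SE of the 8 tested genes in 6 comparisons, where positive values mean higher in the group named first, red marks higher and blue lower calls, and open grey marks an adjusted p that missed 0.05. SLC2A1 and HK2 lie right of 0 against hypoxia with oxamate and NALA (1.32 and 1.69), while SLC2A3 and SLC2A12 lie left of it (-0.89 and -3.52).

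Per kilobase of merged exons, which allows levels of different genes to be compared, the mix of transporters and of hexokinases differed between groups. The summed transporter level was 483 and 505 CPM per kb with oxamate and NALA, 139.7 and 137 with oxamate, 397 and 389 in hypoxia and 50.6 and 51.8 in normoxia. SLC2A1 and SLC2A3 made up nearly all of it. SLC2A3 held 27.2% and 25.5% of the transporter sum with NALA, 11.4% and 10.9% with oxamate, 61.0% and 61.2% in hypoxia and 8.72% and 8.43% in normoxia. Thus SLC2A3 exceeded SLC2A1 per kilobase only in hypoxia without drug, at 1.67 times its level in both libraries. With NALA the ratio of SLC2A3 to SLC2A1 was 0.377 and 0.346, with oxamate 0.135 and 0.127 and in normoxia 0.105 and 0.102.

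The summed hexokinase level was 539.7 and 543 CPM per kb with oxamate and NALA, 108 and 109.6 with oxamate, 224 and 225 in hypoxia and 43.6 and 44.3 in normoxia. HK2 made up 88.9% and 88.5% of it with NALA, 51.0% and 51.2% with oxamate, 66.5% and 66.6% in hypoxia and 29.7% and 29.3% in normoxia. HK1 therefore led per kilobase in normoxia, and HK2 in the other groups. With oxamate the lead of HK2 depended on the length used: with the longest coding transcript of each gene HK2 held 41.1% and HK1 58.9% of the sum. HKDC1 held at most 0.235% in any library. The shares and ratios are given as descriptions and were not tested.

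**Figure D3:**
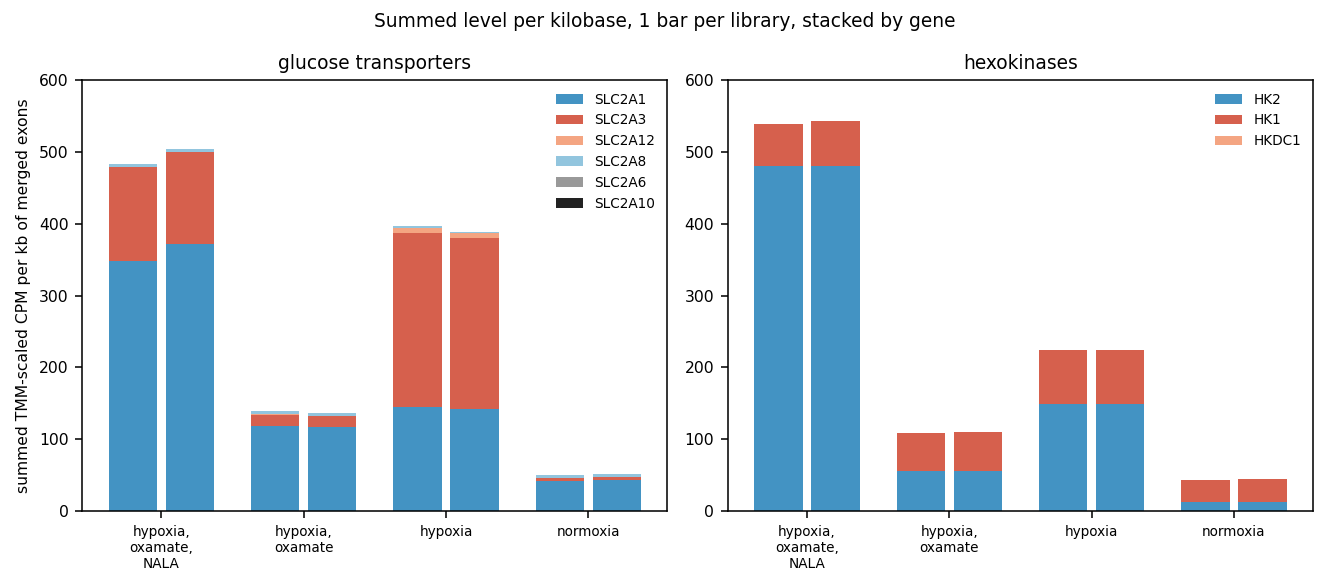
Summed TMM-scaled CPM per kilobase of merged exons for the 6 transporter genes (left) and the 3 hexokinase genes (right), 1 bar per library, stacked by gene, with axes from 0. The transporter sum is 483 and 505 with NALA against 397 and 389 in hypoxia, and HK2 makes up 88.9% and 88.5% of the hexokinase sum with NALA.

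Noncoding genes that touch HK2 and SLC2A1 were chosen after their values were seen. HK2-DT, a transcript that starts beside HK2 and runs the other way, shares 7 bases with it. It had 4 and 7 counts with oxamate and NALA, 14 and 20 with oxamate, 7 and 6 in hypoxia and 140 and 152 in normoxia. Its normoxia libraries were the highest, where HK2 was lowest. HK2-DT was lower in hypoxia than in normoxia (-4.45 ± 0.335, edgeR adjusted p = 5.94e-11), higher with oxamate than in hypoxia by 1.56 ± 0.428 (edgeR adjusted p = 2.14e-03) and lower with NALA than with oxamate (-1.42 ± 0.447, edgeR adjusted p = 8.00e-03). In these 3 comparisons HK2 moved the opposite way. NALA and hypoxia did not differ beyond their spread (0.14 ± 0.535, edgeR adjusted p = 0.822).

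SLC2A1-AS1, an antisense gene, shares 128 bases with SLC2A1, which is 2.71% of the exon bases of SLC2A1. It had 3 and 11 counts with oxamate and NALA, 4 and 6 with oxamate, 103 and 110 in hypoxia and 7 and 6 in normoxia. Hypoxia was thus the only group above 11 counts, and the only one whose 2 libraries both met the expression filter. The calls below all set that group against another, so the filter favoured them. SLC2A1-AS1 rose by 4.02 ± 0.396 on the log2 scale in hypoxia (edgeR adjusted p = 5.83e-09) and was lower with oxamate than in hypoxia (-4.18 ± 0.416, edgeR adjusted p = 5.04e-09). Unlike SLC2A1, it was lower with NALA than in hypoxia (-3.53 ± 0.395, edgeR adjusted p = 3.68e-08). Without strand, reads in the shared bases cannot be assigned to either partner.

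**Figure D4:**
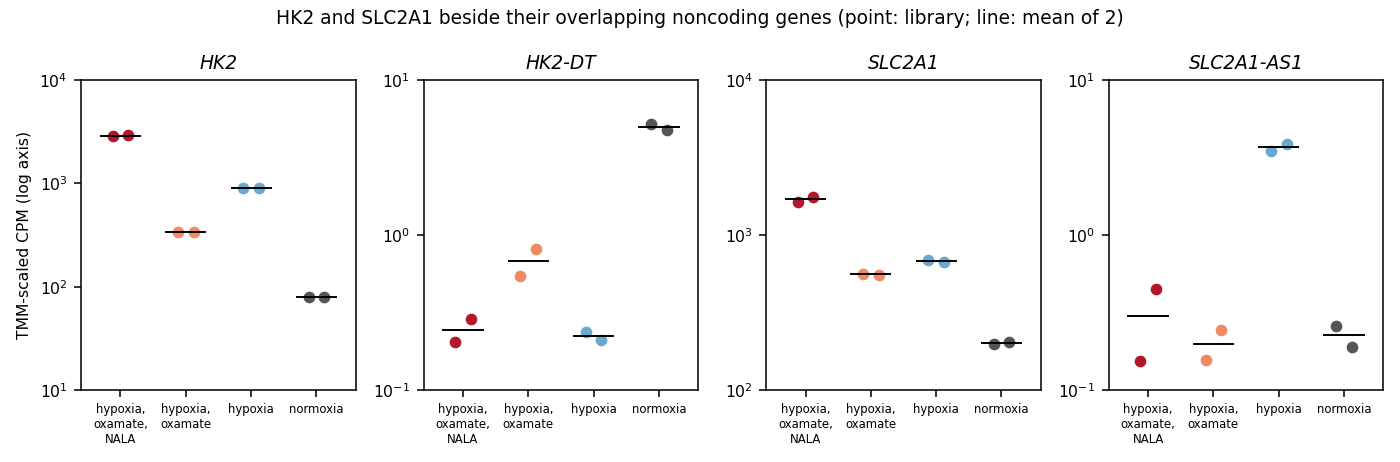
TMM-scaled CPM (log axes, each panel on its own scale) of HK2, HK2-DT, SLC2A1 and SLC2A1-AS1 by library, in the group order hypoxia with oxamate and NALA, hypoxia with oxamate, hypoxia, and normoxia, with lines at means of 2. HK2-DT is highest in normoxia at 5.21 and 4.80 CPM, and SLC2A1-AS1 is highest in hypoxia at 3.50 and 3.87 CPM.

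The genes nearest in pattern were found by the Euclidean distance between centred log2 CPM over the 8 libraries, among 10595 other expressed protein-coding genes. HK2 lay nearest to KDM3A, a histone demethylase gene, at a distance of 0.452. KDM3A averaged 594 CPM with NALA, 92.7 with oxamate, 215.5 in hypoxia and 20.1 in normoxia. SLC2A1 lay nearest to the kinase genes CLK3 (0.266) and PIM3 (0.336). HK1 lay nearest to PGM1 (0.204), whose enzyme links glucose 6-phosphate with glycogen, and to RAB38 (0.216). SLC2A8 lay nearest to DHRSX (0.192) and JMJD7 (0.202). For SLC2A3 and SLC2A12 no gene lay as near: SLC2A3 was 1.16 from ANKRD37 and 1.17 from DDIT4, an inhibitor of mTORC1, and SLC2A12 was 1.12 from CCN5 and 1.13 from KCTD11. The low genes SLC2A6 and HKDC1 had ADM5 (0.531) and COL1A1 (0.457) nearest.

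Some of the other listed carrier genes, taken by family and not by what they carry, passed the expression filter. Of 8 other SLC2A genes 4 were tested, and 1 was called in hypoxia against normoxia, as higher. Of all tested genes, 36.7% were called higher and 36.8% lower there. The called gene was SLC2A11, at 4.32 CPM against 1.44 CPM in normoxia (1.56 ± 0.233, edgeR adjusted p = 3.02e-06). Of 8 genes for sodium-coupled carriers and the SWEET carrier 3 were tested. SLC50A1, the human SWEET gene, averaged 32.9 CPM with NALA, 51.6 CPM with oxamate, 106 CPM in hypoxia and 32.1 CPM in normoxia. SLC50A1 therefore rose in hypoxia (1.72 ± 0.047) and was lower with NALA than with oxamate (-0.65 ± 0.053, edgeR adjusted p = 3.31e-10), unlike SLC2A1 and SLC2A3. SLC5A3 of the same list moved as SLC2A1 and SLC2A3 did. It rose in hypoxia (1.05 ± 0.062) and was higher with NALA than with oxamate (1.67 ± 0.078, edgeR adjusted p = 2.07e-14). NALA against oxamate thus gave 1 higher and 1 lower call among these 3 genes, where 33.2% of all genes were higher and 31.7% lower. HK3 had 1 count in all. ADPGK, which phosphorylates glucose with ADP, averaged 57.5 CPM with NALA, 58.7 CPM with oxamate, 44.1 CPM in hypoxia and 58.7 CPM in normoxia. ADPGK fell in hypoxia by 0.41 ± 0.057 on the log2 scale and was higher with oxamate than in hypoxia by 0.41 ± 0.058, the reverse of HK1 and HK2 (edgeR adjusted p = 9.49e-07 and 1.03e-06).

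Downstream of hexokinase, all 14 listed genes of glycolysis to lactate were higher in hypoxia than in normoxia, where 36.7% of all tested genes were called higher, with a median log2 fold change of 1.73 against 0.018 over all genes. GPI, which takes up glucose 6-phosphate first, rose by 2.98 ± 0.030 and the enolase gene ENO2 by 4.78 ± 0.048. With oxamate 11 of the 14 were lower than in hypoxia and 3 higher, where 44.8% of all genes were lower and 35.7% higher (median -0.63, against -0.20 over all genes). With NALA 10 were higher than with oxamate and 4 lower, where 33.2% of all genes were higher and 31.7% lower (median 0.23, against -0.018 over all genes). Against hypoxia alone, oxamate with NALA left 11 of the 14 lower and 2 higher, where 40.2% of all genes were lower and 38.5% higher (median -0.45, against -0.054 over all genes), while HK2 and SLC2A1 were higher. GPI averaged 1270 CPM with NALA against 3376 CPM in hypoxia (-1.41 ± 0.028, edgeR adjusted p = 3.98e-21). Of 12 genes of the pentose phosphate and glycogen branches, 8 were higher and 4 lower in hypoxia than in normoxia, where 36.7% of all genes were higher and 36.8% lower, so the lower share is near that of all genes. GBE1, the glycogen branching enzyme gene, was lower with oxamate than in hypoxia (-1.98 ± 0.058, edgeR adjusted p = 1.63e-18). NALA against oxamate gave 3 higher and 8 lower calls in this list, where 33.2% of all genes were higher and 31.7% lower, and GBE1 was among the higher ones (0.97 ± 0.064).

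A list headed as control of transporter surface level and hexokinase docking held 9 genes, of which 8 were tested. It included MLXIP and SLC2A4RG, so its counts are not of carrier traffic and docking genes alone. ARRDC4, an arrestin-like relative of TXNIP that promotes removal of glucose carriers from the surface, was at 90.7 and 93.6 CPM with oxamate and NALA, 15.8 and 14.5 CPM with oxamate, 24.4 and 21.9 CPM in hypoxia and 22.4 and 22.7 CPM in normoxia. The NALA libraries stood above all others, while hypoxia and normoxia overlapped. ARRDC4 rose 6.08-fold with NALA relative to oxamate (2.60 ± 0.065, edgeR adjusted p = 5.03e-19), together with SLC2A1, SLC2A3 and HK2. SNX27, which returns carriers to the surface, was lower with oxamate than in hypoxia (-1.26 ± 0.062) and higher with NALA than with oxamate (1.10 ± 0.065). VDAC1, a mitochondrial pore on which hexokinases dock, averaged 567 CPM with NALA, 689.5 CPM with oxamate, 423 CPM in hypoxia and 452 CPM in normoxia. VDAC1 was higher with oxamate than in hypoxia (0.71 ± 0.029) and lower with NALA than with oxamate (-0.28 ± 0.029), opposite to HK2 in both. VDAC2, another pore gene of the list, averaged 482 CPM with NALA, 451 CPM with oxamate, 260 CPM in hypoxia and 201 CPM in normoxia. VDAC2 was higher in hypoxia than in normoxia (0.37 ± 0.031) and with oxamate than in hypoxia (0.79 ± 0.031). It was also called higher with NALA than with oxamate, the direction of HK2. In this list, NALA against oxamate gave 5 higher calls and 1 lower, VDAC1, where 33.2% of all genes were higher and 31.7% lower. Among 7 tested genes of a short hypoxia list, all 7 were higher in hypoxia than in normoxia (median 4.13), where 36.7% of all genes were higher. With oxamate 6 of them were lower than in hypoxia and 1 higher, where 44.8% of all genes were lower and 35.7% higher. All 7 were higher with NALA than with oxamate (median 1.45), where 33.2% of all genes were higher.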

How the data were processed

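The authors deposited 1 table of counts per gene, whole numbers without normalization, with 1 column for each of 8 libraries. FastQC 0.11.9, STAR 2.7.8a, RSEM 1.3.3 and builds hg38 and GRCh38 stand in the submitters' processing notes with no role given, so the counts may be rounded estimates. The sources used here name neither strand nor annotation release. Poly(A) selection is per the labels' protocols.

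Groups came from sample titles. Genes were kept by filterByExpr (minimum count 10), scaled by TMM and fitted in 1 model of 4 group means on all 8 libraries (edgeR 4.0.16, R 4.3.3, robust quasi-likelihood F test, two-sided, 4 residual degrees of freedom). A gene was called at a Benjamini-Hochberg adjusted p under 0.05. Each SE is the absolute log2 fold change over the square root of F. The sixth comparison, oxamate and NALA against normoxia, was added after values were seen. The method was tested on simulated data.

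Total counts were 21845676 to 29406061, and the common biological coefficient of variation was 3.06%, so small differences passed the test. Positions, exon lengths and overlaps are from GENCODE 29, and promoter windows are from a RefSeq table on GRCh38.p14. Alternatives were DESeq2 1.42.0, RLE and upper quartile scaling, no filter, a filter of 50 counts in 2 libraries, a test against a fold of 1.5 (limma 3.58.1 loaded by edgeR), a replicate block, fits of the 2 groups alone, leaving out each library, other lengths, and adding the copies SLC2A14, SLC2A3P1, SLC2A3P2 and SLC2A3P4 to SLC2A3 and HK2P1 to HK2.

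Members and gene lists were chosen with earlier results of these data known. All members are named. In each list at most 4 genes per comparison are named, the 2 with the smallest p in each direction among called genes. Nearest patterns are the 2 closest genes by distance over log2 CPM (prior count 2, mean log2 CPM at least 1). HK2-DT, SLC2A1-AS1, TXNIP, ALB, AFP, COL1A1 beside HKDC1 and the list genes given with levels (SLC50A1, VDAC1, VDAC2, ADPGK, HK3) were singled out after their values were seen.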

Additional observations from a re-analysis of the deposited data

How the results depend on the processing

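Of 809 values of single genes under alternatives, 774 kept their direction and side of the threshold, 26 lost a call, 1 gained one and 8 changed sign. The 8 sign changes were all in differences that did not pass. They were SLC2A8 with NALA against normoxia (-0.13 with upper quartile scaling, -0.011 without a filter, -0.017 with the stricter filter, -0.013 without normoxia replicate 1 and -0.088 without NALA replicate 2), SLC2A6 with NALA against hypoxia (0.29 without hypoxia replicate 1 and 0.12 without NALA replicate 1) and HKDC1 with NALA against oxamate (0.041 without NALA replicate 1). Leaving out 1 library each, these differences ranged from -0.088 to 0.11, from -0.41 to 0.29 and from -0.92 to 0.041. HKDC1 with NALA against normoxia (-1.41 ± 0.589, edgeR adjusted p = 0.0368) lost its call under 8 alternatives, with values from -2.02 to -1.05 over all of them. A test against a fold of 1.5 called 5726 of all genes in hypoxia against normoxia, 8208 in oxamate against hypoxia, 3818 in NALA against oxamate, 7398 in NALA against hypoxia, 5801 in oxamate against normoxia and 5983 in NALA against normoxia, where the test without a minimum fold called 11429, 12525, 10087, 12227, 11195 and 11308. Upper quartile scaling moved the median of all genes to 0.12 in hypoxia against normoxia, to -0.21 in NALA against oxamate, to -0.31 in NALA against hypoxia and to -0.19 in NALA against normoxia. With it the split of calls became 4150 higher and 6340 lower in NALA against oxamate (5160 and 4927 with TMM) and 4683 and 7693 in NALA against hypoxia (5981 and 6246 with TMM), and the family gave 4 higher and 2 lower calls in NALA against oxamate. There HK1 lost its call and SLC2A6 gained one (-0.97). The cause was not tested. Same-numbered libraries showed no shared deviation: correlations of same-numbered deviations over 15554 genes lay between -0.050 and 0.012. Such correlations cannot show whether same-numbered libraries were handled together. With the replicate number as a block no call of the family changed, HK2 with NALA against oxamate stayed at 3.11, and calls over all genes in hypoxia against normoxia were 11301. Shares of CPM without a length gave HK2 88.6% and 88.1% of the hexokinase sum with NALA, 50.1% and 50.2% with oxamate, 65.7% and 65.8% in hypoxia and 28.98% and 28.57% in normoxia. Low counts limit the precision of SLC2A6 and HKDC1, and SLC2A10, with 1 count in all, was not tested.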
